A study of Rattus norvegicus with 4 samples.

Results

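Cytochrome P450 enzymes are heme proteins that insert oxygen into lipids, steroids, vitamins and foreign compounds. Described here are rat P450 genes on the array that lie outside testosterone synthesis, cholesterol synthesis and the retinoic acid hydroxylases of family 26. The RNA came from testis, and no gene was required to be expressed there. The genes were taken as probe sets with a single gene symbol starting with Cyp and a digit, leaving out Cyp11a1, Cyp17a1, Cyp26b1 and Cyp51. This gave 45 of the 4736 genes measured, read by 76 of 7006 probe sets. Of the 45, 37 belonged to families 1 to 4 and 8 to the bile acid, steroid and vitamin D families.

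Whole testis came from rats fed a diet lacking vitamin A from day 20 of life for 9 weeks, which is the state shared by all groups. The untreated deficient testis (VAD) was compared with deficient testis taken 4, 8 and 24 h after retinol, on the Affymetrix Rat Genome U34 array. Each group was 1 array. Neither the labels nor the design text gives the strain, the retinol dose or the number of animals behind an array. The deposited values were ratios per probe set, so a fold between 2 arrays can be read but a level cannot, and the tissue label could not be checked by the presence of marker genes. In a whole tissue, fewer cells of a type and less RNA per cell cannot be told apart.

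P450 proteins are named by sequence, with the number giving the family and the letter the subfamily. Families 1 to 3 oxidise drugs, pollutants and many steroids, and family 4 hydroxylates the far end of fatty acids and eicosanoids. Families 7, 27 and others work on cholesterol, bile acids, steroid hormones and vitamin D. In the liver, many of these genes are switched by nuclear receptors that pair with the retinoid X receptor. Among these receptors are PPAR alpha, PXR, CAR and FXR. Cyp7a1 in particular is restrained through FXR and the repressor Nr0b2. Some family 2 enzymes, among them those of Cyp2c7 and Cyp2c22, can hydroxylate retinoic acid.

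Receptors of this class, retinoic acid receptors included, recognise the hexamer AGGTCA. The sequences below are windows of 250 bases at the annotated start of 3 P450 genes, 5′ to 3′, from RefSeq on assembly GRCr8. The Cyp2b12 window ends just before the gene span. The spans of Cyp4a3 and Cyp2c7 start at 134352268 and 247966295, so the last bases of their windows lie within the gene. The 3 genes were chosen after the values were seen, from genes with large differences between arrays whose window holds the hexamer, which is in capitals. Cyp2c22 also had a match, while the window of Cyp3a18, another gene with a large difference, had none.
Cyp4a3, chr5:134352237-134352486, strand minus: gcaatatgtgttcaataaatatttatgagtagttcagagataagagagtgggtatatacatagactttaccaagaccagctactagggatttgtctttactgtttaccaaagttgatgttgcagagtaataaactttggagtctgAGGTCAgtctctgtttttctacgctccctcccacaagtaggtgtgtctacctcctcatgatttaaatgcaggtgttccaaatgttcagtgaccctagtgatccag
Cyp2c7, chr1:247966144-247966393, strand plus: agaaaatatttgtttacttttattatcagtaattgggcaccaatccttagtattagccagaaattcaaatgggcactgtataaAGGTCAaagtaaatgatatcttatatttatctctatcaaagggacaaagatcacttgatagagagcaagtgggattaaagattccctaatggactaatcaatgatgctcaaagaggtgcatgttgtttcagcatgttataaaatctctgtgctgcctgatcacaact
Cyp2b12, chr1:91135044-91135293, strand plus: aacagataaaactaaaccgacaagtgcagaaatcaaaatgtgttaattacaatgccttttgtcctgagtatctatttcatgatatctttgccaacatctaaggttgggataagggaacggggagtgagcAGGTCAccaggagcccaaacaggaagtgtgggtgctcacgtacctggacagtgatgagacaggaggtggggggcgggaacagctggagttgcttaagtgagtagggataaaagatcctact

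The match began 105 bases before the end of the printed window in Cyp4a3, 167 in Cyp2c7 and 121 in Cyp2b12. Of the 45 genes, 34 had a sequence of this window. AGGTCA was searched on both strands and was found in 12 of the 34 (35.3%), in comparison with 14.1% of all 33469 windows of this length. The related hexamer AGTTCA was found in 10 of 34 (29.4%) and in 12.2% of all windows. TATAAA, the TATA box core, which shares no overlap with these hexamers, was found in 12 of 34 (35.3%) and in 12.9% of all. Direct repeats of AGGTCA with 5 or 1 bases between the copies were found in 0 of 34, and in 0.00896% and 0.0508% of all windows. A match of letters is a description and does not show that a receptor binds there, and paralogs of a subfamily share sequence.

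The values below are log2 differences in deposited ratio, a gene being the mean over its probe sets. Since each group is a single array, no p-value was computed. The error given is the spread (SD) of a probe set, taken from 1083 genes that are covered by more than 1 database sequence. For a gene with 1 probe set this error came to 0.43 at 4 h, 0.51 at 8 h and 0.57 at 24 h against VAD. Variation among rats is not part of it. For the 19 P450 genes with such pairs it was 0.59, 0.38 and 0.60. The pair had the same sign in 11, 11 and 9 of the 19.

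Across the array, the median of all genes was -0.09, -0.12 and -0.12 at 4, 8 and 24 h. The 9 bacterial hybridisation spike-ins had median differences of -0.55, -0.58 and -0.71, and none of the 9 reached its VAD value on a retinol array. Scaling on them would add 0.55, 0.50 and 0.62 to every gene, so signs of differences below that size hold for the values as deposited. For 3 control transcripts, the log2 ratio of the 5′ minus the 3′ probe sets was on average 0.71, 1.09 and 1.01 above its VAD value. The part of this shift in the values below was not tested.

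Most P450 genes stayed within 2-fold of VAD at every time. None of the 45 was at least 2-fold higher at 4 h, 8 h or 24 h, where 1.41%, 2.83% and 3.27% of all genes were. At each time 1 of the 45 (2.22%) was at least 2-fold lower, in comparison with 1.25%, 1.88% and 2.64% of all genes. These were Cyp7a1 at 4 h and 24 h and Cyp4a3 at 8 h. All these shares rest on 0 or 1 gene of 45 and lie near the background. With a threshold of 1.5-fold, 2, 1 and 4 of the 45 were higher and 4, 3 and 5 lower. The same threshold took 6.17%, 8.53% and 8.99% of all genes as higher and 6.63%, 12.3% and 14.1% as lower.

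**Figure D1:**
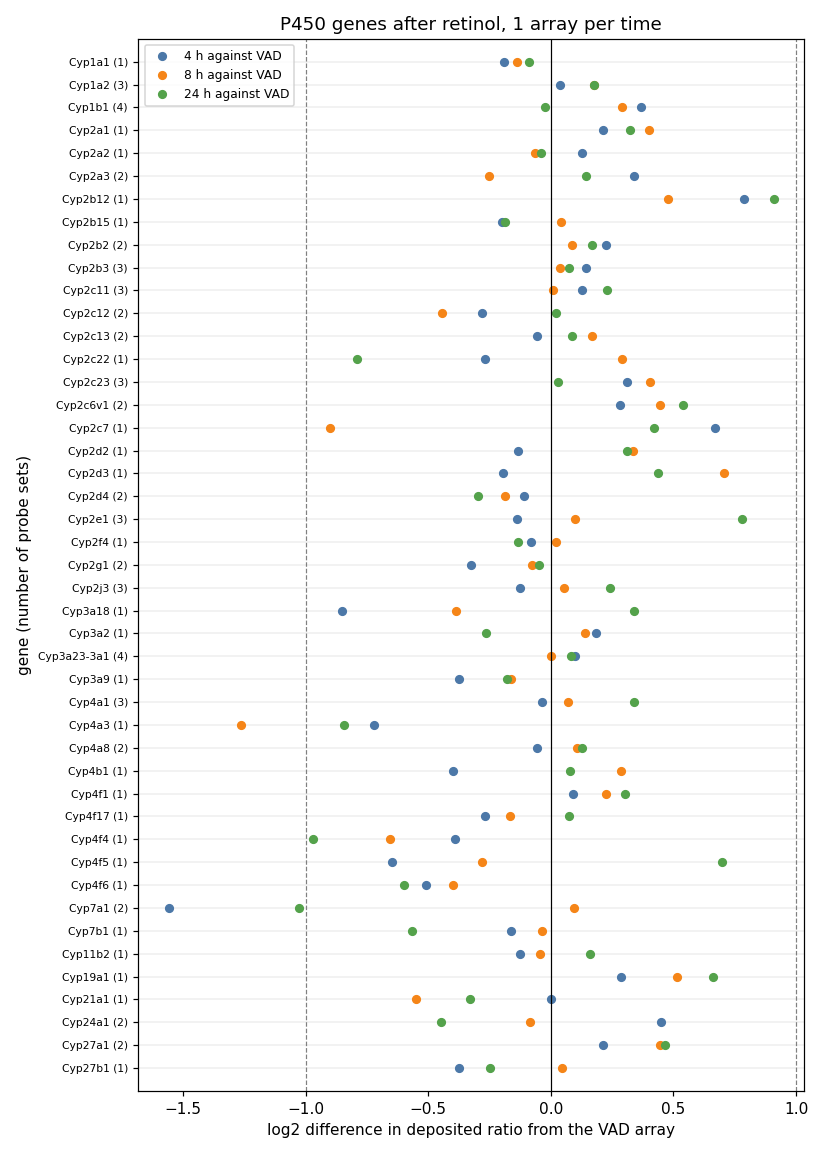
Log2 difference from the VAD array for each of the 45 P450 genes (rows, with the number of probe sets in brackets) at 4, 8 and 24 h (coloured points), with dashed lines at 2-fold. Only Cyp7a1 at 4 h (-1.56) and 24 h (-1.03) and Cyp4a3 at 8 h (-1.26) lie beyond a dashed line.

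Values above VAD were more common among the P450 genes than among all genes at 8 h and 24 h. The 45 genes had medians of -0.08, 0.04 and 0.08, and 19, 26 and 27 of them were above VAD. That is 42.2%, 57.8% and 60.0%, beside 38.8%, 38.5% and 40.0% of all genes. All 3 retinol arrays lay above VAD in 11 of the 45 (24.4%, beside 24.6% of all genes) and below it in 8 (17.8%, beside 45.8%). The 8 were Cyp1a1, Cyp2d4, Cyp2g1, Cyp3a9, Cyp4a3, Cyp4f4, Cyp4f6 and Cyp7b1. Genes read by several database sequences had medians nearer 0 on this array, at -0.01, -0.01 and 0.00 for 1083 genes. Of the 19 P450 genes of that kind, 10, 14 and 14 were above VAD, beside 47.8%, 48.3% and 49.6% of all genes of that kind. Of the other 26, 9, 12 and 13 were, beside 36.1%, 35.6% and 37.2% of all genes with 1 sequence. Without suffixed probe sets, 8 and 10 of the 21 P450 genes left were above VAD at 8 h and 24 h. The shares of all genes were 38.8% and 40.1%, so the excess at 8 h was gone. With scaling on spike-ins 41 of 45 were above VAD at 8 h and 24 h, beside 82.6% and 88.1%. With each array centred on its median, 32 and 31 of 45 were, beside 49.7% and 50%. These counts could not be tested with 1 array per group.

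Of the families, 1 to 4 and the bile acid and steroid group were compared next. The 37 genes of families 1 to 4 gave -0.08, 0.04 and 0.08 as their medians. For the 8 bile acid, steroid and vitamin D genes these were -0.06, 0.00 and -0.29. The last was -0.09 without the probe sets of suffix i or r, which removes 1 of the 2 probe sets of Cyp7a1. Their means at 24 h were 0.07 with an error of 0.08 from probe set spread and -0.17 with an error of 0.18. The ranges of the 2 groups overlapped at every time, from -0.97 to 0.91 and from -1.03 to 0.66 at 24 h. The gap between them was not tested. Of the 8 genes, 3 were above VAD at 24 h, as were 24 of the 37 and 40.0% of all genes.

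**Figure D2:**
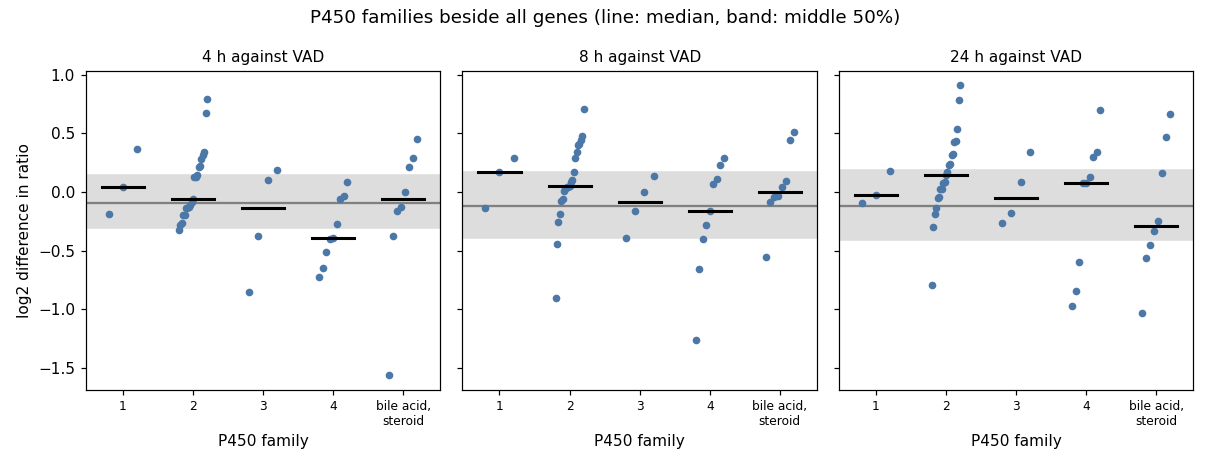
Log2 difference from VAD for P450 genes (points) by family, 1 panel per time, with a black bar at each group's median; the grey line and band give the median and the middle 50% of all genes. Of the groups plotted, family 4 has the lowest median at 4 h (-0.39) and the bile acid and steroid group at 24 h (-0.29).

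Cyp7a1 encodes the rate-limiting enzyme of the classic bile acid pathway, in which cholesterol is hydroxylated at carbon 7. Its ratios ran 0.677, 0.230, 0.723 and 0.333 in the order VAD, 4 h, 8 h, 24 h. The 4 h and 24 h arrays were thus low and the VAD and 8 h arrays higher. It was 2.95-fold lower at 4 h (-1.56, error 0.30) and 2.04-fold lower at 24 h (-1.03, error 0.40), with 0.09 at 8 h. These errors come from the spread over all genes. The SD between its own 2 probe sets was larger, at 1.77 at 4 h and 1.55 at 24 h. The low values came from 1 of 2 probe sets, from sequence J05509, with ratios of 0.496, 0.0708, 0.508 and 0.114. The other, from sequence J05460, read 0.925, 0.747, 1.03 and 0.970, which is -0.31 at 4 h and 0.07 at 24 h. The probe set from J05509 carries the suffix that marks a probe set with fewer probe pairs, and without it neither 2-fold difference remained.

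The other bile acid genes differed from each other. Cyp27a1, the mitochondrial sterol 27-hydroxylase that starts the alternative pathway, had ratios of 1.01, 1.16, 1.37 and 1.39. Its differences were 0.21, 0.45 and 0.46, with both probe sets above VAD at all 3 times (0.16 and 0.77 at 24 h). Cyp7b1, the oxysterol 7-hydroxylase of the same pathway, had ratios of 1.04, 0.926, 1.01 and 0.701, or -0.16, -0.04 and -0.56 from 1 probe set with an error of 0.57 at 24 h. No difference of either gene was over 1.5-fold.

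Among steroid genes, Cyp19a1, aromatase, which makes oestrogens in the testis, had the highest values. Its ratio was 1.13 in VAD and 1.38, 1.62 and 1.79 at 4, 8 and 24 h, so that each retinol array stood above VAD. The differences of 0.29, 0.51 and 0.66 were near the error of 1 probe set. Cyp21a1, the adrenal 21-hydroxylase, was at 0.00, -0.55 and -0.33, with ratios of 0.906, 0.907, 0.618 and 0.720. Cyp11b2, aldosterone synthase, was at -0.13, -0.04 and 0.16, all small beside the error. For comparison, the left-out Cyp11a1 and Cyp17a1 were at -1.95 and -1.63 at 24 h.

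The vitamin D genes were both below VAD at 24 h. Cyp24a1, which breaks down active vitamin D, had ratios of 1.11, 1.52, 1.05 and 0.813, or 0.45, -0.09 and -0.45. Its probe sets read 1.46, 2.57, 1.501 and 1.14 (L04619) and 0.843, 0.895, 0.729 and 0.581 (Z28351), both highest at 4 h and lowest at 24 h. Cyp27b1, which makes active vitamin D, was at -0.37, 0.04 and -0.25. None of these passed the error by a factor of 2.

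**Figure D3:**
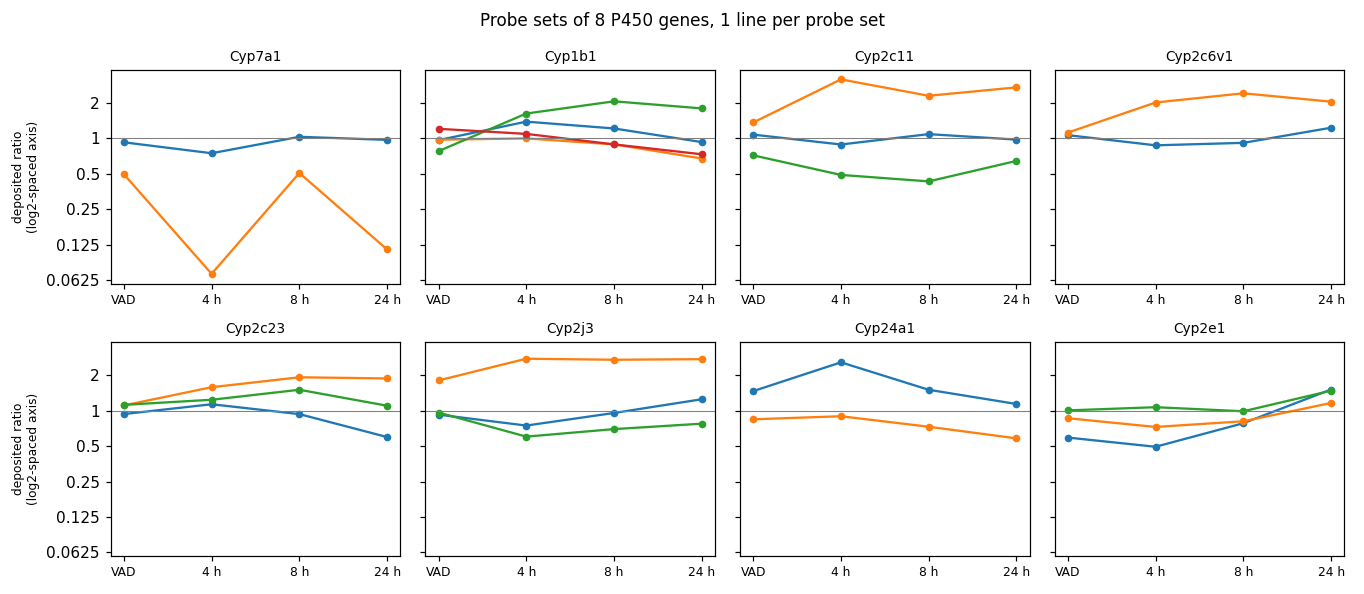
Deposited ratio (log-spaced axis) of every probe set of 8 P450 genes on the VAD, 4 h, 8 h and 24 h arrays, 1 line per probe set. The 2 probe sets of Cyp7a1 and the 3 of Cyp2c11 differ from each other. For Cyp2j3 1 probe set lies apart from the others, as does 1 of Cyp1b1 at 8 h and 24 h. The 3 of Cyp2e1 all end above their VAD value at 24 h.

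Family 4, the fatty acid omega-hydroxylases, had the lowest median of families 1 to 4 at 4 h. Its 9 genes had a median of -0.39 at 4 h, -0.17 at 8 h and 0.08 at 24 h, and 8, 5 and 3 of the 9 were below VAD. Among all 4736 genes, 2894, 2911 and 2837 were below VAD at these times. The middle 50% of all genes lay between -0.31 and 0.15 at 4 h. No family 4 gene was 2-fold lower at 4 h, where 1.25% of all genes were, and scaling on spike-ins would turn the median above 0.

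Cyp4a3, an omega-hydroxylase of the PPAR alpha regulated 4a subfamily, had ratios of 0.974, 0.591, 0.406 and 0.542 in the same order. Each retinol array was below VAD, the 8 h array most, at 2.40-fold lower (-1.26, error 0.51). The differences at 4 h and 24 h were -0.72 and -0.85, from 1 probe set. A second probe set assigned to both Cyp4a3 and Cyp4a2 read 0.630, 0.497, 0.548 and 0.622, or -0.34, -0.20 and -0.02. The related genes Cyp4a1 and Cyp4a8 were at -0.04, 0.07 and 0.34 and at -0.06, 0.11 and 0.13. PPAR alpha (Ppara) itself was at 0.78, 0.40 and 0.83 from 1 probe set.

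The 4f subfamily, which inactivates leukotriene B4 and related lipids, held opposite values. Cyp4f4 had ratios of 1.18, 0.897, 0.747 and 0.601, stepping down with time to -0.97 at 24 h (1.96-fold). Cyp4f6 was at -0.51, -0.40 and -0.60, also below VAD on each retinol array. Cyp4f5 had ratios of 1.35, 0.858, 1.11 and 2.19, below VAD at 4 h (-0.65) and above it at 24 h (0.70). Cyp4f1 was at 0.09, 0.23 and 0.30 and Cyp4f17 at -0.27, -0.17 and 0.07. Cyp4b1, a lung enzyme gene, was at -0.40, 0.29 and 0.08. All 5 genes of the 4f subfamily rested on 1 probe set each, with an error of 0.57 at 24 h.

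**Figure D4:**
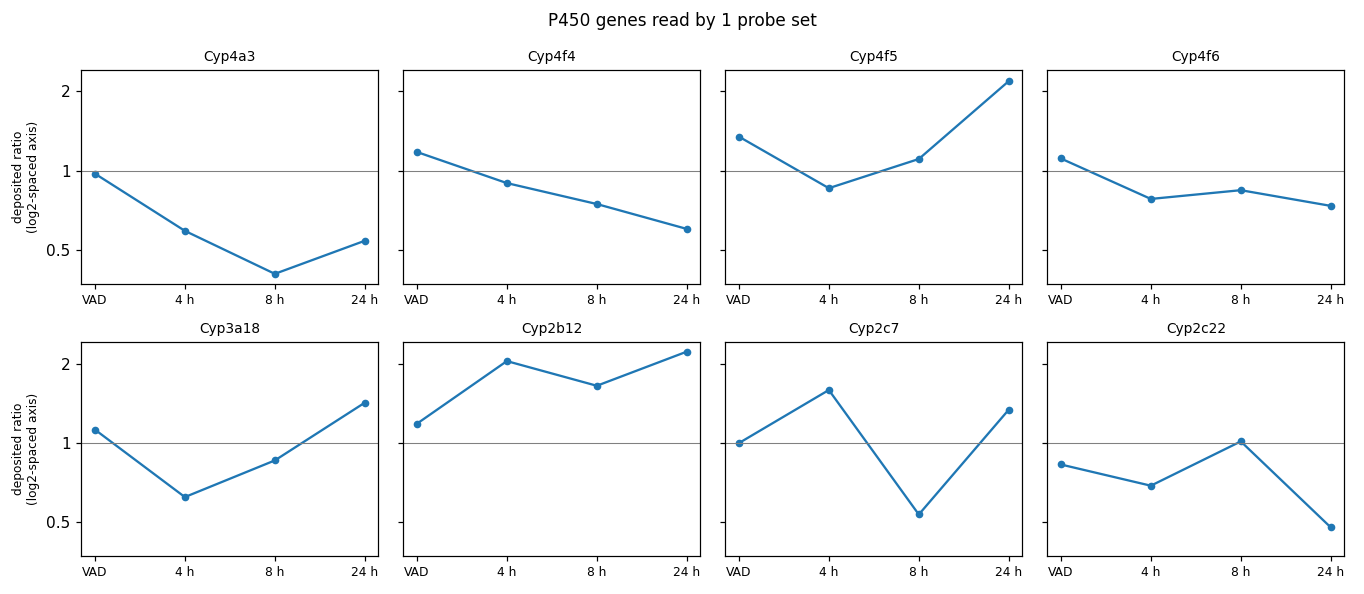
Deposited ratio (log-spaced axis) of 8 P450 genes read by 1 probe set each, on the VAD, 4 h, 8 h and 24 h arrays. Cyp4a3 is lowest at 8 h (0.406), Cyp4f4 steps down to 0.601, and Cyp2c7 alternates between 1.59, 0.535 and 1.34 on the retinol arrays.

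Family 2, the largest drug and lipid oxidising family, had 21 genes with medians of -0.06, 0.05 and 0.14. Of these, 10, 15 and 15 were above VAD, beside 38.8%, 38.5% and 40.0% of all genes. None of the 21 was 2-fold higher or lower than VAD. The shares of all genes were 1.41%, 2.83% and 3.27% higher and 1.25%, 1.88% and 2.64% lower. Cyp2b12, a 2b enzyme of skin, had the highest differences of the family at 4 h and 24 h. Its ratios were 1.18, 2.04, 1.65 and 2.22, all 3 retinol arrays standing above VAD, at 0.79, 0.48 and 0.91 from 1 probe set. The 24 h difference was 1.88-fold, with an error of 0.57. Cyp2b2, the phenobarbital-inducible gene, was at 0.22, 0.09 and 0.17, and Cyp2b3 and Cyp2b15 between -0.20 and 0.14 at all times.

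Cyp2e1, which oxidises ethanol and ketones, had ratios of 0.799, 0.726, 0.855 and 1.37. The 24 h array alone was high, by 0.78 (1.72-fold, error 0.33). Its 3 probe sets were at 1.35, 0.43 and 0.56, all above VAD, so that 3 database sequences gave the same direction.

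The 2c subfamily, whose liver genes differ between males and females, held both family 2 genes past 2-fold between retinol arrays. Cyp2c7 had ratios of 0.998, 1.59, 0.535 and 1.34, high at 4 h and 24 h and low at 8 h, or 0.67, -0.90 and 0.42. Cyp2c22 had ratios of 0.828, 0.688, 1.01 and 0.478, with 24 h the lowest array (-0.79). Both rested on 1 probe set. Another 3 probe sets assigned to Cyp2c7 and its copy Cyp2c7l1 read 0.04, -0.48 and 0.09 at 4 h, -0.27, -0.16 and -0.85 at 8 h and 0.36, 0.50 and -0.57 at 24 h. All 3 were below VAD at 8 h, but none had the high 4 h value of the Cyp2c7 probe set.

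Cyp2c11, the male-specific liver gene, had 3 probe sets that disagreed. The one from M18363 read 1.36, 3.16, 2.30 and 2.705, that from X79081 read 0.717, 0.489, 0.431 and 0.643, and that from J02657 read 1.08, 0.886, 1.08 and 0.975. The mean over them was 0.13, 0.01 and 0.23, with the probe sets on both sides of VAD at every time. Cyp2c6v1 had probe sets at 0.85, 1.11 and 0.87 (AA945571) and at -0.29, -0.22 and 0.21 (M14776), and a mean of 0.28, 0.44 and 0.54.

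Of the other 2c genes, Cyp2c12, the female-specific gene, was at -0.28, -0.44 and 0.02, with both probe sets below VAD at 4 h and 8 h. Cyp2c13 was at -0.06, 0.17 and 0.09. Cyp2c23, an arachidonic acid epoxygenase of kidney, was at 0.31, 0.41 and 0.03, with probe sets from -0.65 to 0.76 at 24 h.

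The remaining family 2 genes mostly differed from VAD by less than the error. Cyp2d3 was at -0.20, 0.71 and 0.44 and Cyp2d2 at -0.13, 0.34 and 0.31, each from 1 probe set, whereas Cyp2d4 was at -0.11, -0.19 and -0.30 from 2 sequences. Cyp2a3, an olfactory and lung enzyme gene, was at 0.34, -0.25 and 0.14, Cyp2a1 at 0.21, 0.40 and 0.32 and Cyp2a2 at 0.13, -0.06 and -0.04. Cyp2j3, an epoxygenase gene of heart, was at -0.12, 0.05 and 0.24, its probe sets reading 0.60, 0.43 and -0.31 at 24 h. Cyp2f4 and Cyp2g1 stayed between -0.32 and 0.02.

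Family 1 genes differed from VAD by at most 0.37. Cyp1a1, the gene most strongly induced through the dioxin receptor Ahr, was at -0.19, -0.14 and -0.09, and Cyp1a2 at 0.04, 0.17 and 0.18. Ahr was at 0.30, 0.24 and 0.34 and its partner Arnt at 0.38, 0.68 and 0.58. Cyp1b1, which oxidises oestrogens and polycyclic hydrocarbons outside the liver, was at 0.37, 0.29 and -0.02 from 4 probe sets. Of these, X83867 read 1.06, 1.40 and 1.21 while the expressed sequence tag AI176856 read -0.14, -0.44 and -0.72. The 5′ minus 3′ control values differed from VAD on the same arrays, and their part in this disagreement was not tested.

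In family 3, the main drug oxidising subfamily of the liver, Cyp3a18 had ratios of 1.12, 0.623, 0.858 and 1.42. It was at -0.85 at 4 h (1.80-fold lower, error 0.43), -0.39 at 8 h and 0.34 at 24 h. Cyp3a2 was at 0.19, 0.14 and -0.27, Cyp3a9 at -0.37, -0.16 and -0.18, and Cyp3a23-3a1 within 0.10 of VAD at all times. Probe sets of the last ranged from -0.50 to 0.51 at 4 h.

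Between successive retinol arrays the same few genes made up the counts. At 8 h against 4 h, Cyp7a1 was 3.15-fold higher (1.65) and Cyp2c7 2.97-fold lower (-1.57), 1 of 45 in each direction (2.22%). The shares of all genes were 0.718% and 0.929%. At 24 h against 8 h, Cyp2c7 was 2.50-fold higher (1.32), while Cyp7a1 (-1.12) and Cyp2c22 (-1.08) were at least 2-fold lower. That is 2.22% and 4.44% of the 45, beside 0.507% and 0.655% of all genes. Both Cyp7a1 values came from the J05509 probe set, and the other read 0.46 and -0.09, so neither was past 2-fold without it. For Cyp2c7, the probe sets shared with Cyp2c7l1 read -0.31, 0.32 and -0.94 at 8 h against 4 h. At 24 h against 8 h they read 0.64, 0.66 and 0.28, all in the direction of Cyp2c7 but none past 2-fold. Errors of 1 probe set were 0.33 and 0.32 here, and 0.50 and 0.43 when taken from the 19 P450 genes with pairs. Cyp2d3 at 8 h against 4 h (0.90) and Cyp4f5 at 24 h against 8 h (0.98) came next. These comparisons share the 8 h array, so a low or high 8 h value enters both.

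Genes that serve the P450 enzymes were taken from lists of known partners. Electrons reach microsomal P450s from Por, which was at 0.31, 0.39 and 0.37 from 3 probe sets, and mitochondrial ones from Fdx1, at -0.21, -0.74 and -1.28. Of the 6 redox partners measured, 0, 0 and 1 were at least 2-fold higher and 0, 0 and 1 lower, around medians of 0.14, 0.25 and 0.36. Over all genes the shares were 1.41%, 2.83% and 3.27% higher and 1.25%, 1.88% and 2.64% lower, and those of the lists that follow are read beside them. The cytochrome b5 reductase genes Cyb5r1 and Cyb5r3 had ratios of 2.64 and 1.498 at 24 h (1.32 and 0.920 in VAD), Cyb5r1 reaching 2-fold.

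Heme is made from the product of Alas1, whose ratio was 1.15, 2.32, 1.28 and 0.96, or 2-fold higher at 4 h (1.01) and near VAD later. The 8 heme genes had medians of -0.14, -0.19 and -0.24, Alas1 at 4 h being the 1 gene past 2-fold. At 24 h the largest differences were those of Alas2 (-0.71), Hmox1 (0.39) and Alad (-0.38).

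None of the 17 measured regulators of P450 genes (21 listed) passed 2-fold, and 13, 11 and 12 of them were above VAD, with medians of 0.13, 0.15 and 0.04. Of all genes 38.8%, 38.5% and 40.0% were above VAD. Nr0b2, the repressor that acts on Cyp7a1, was at 0.83, 0.19 and 0.08, and the bile acid receptor gene Nr1h4 at 0.13, -0.37 and -0.74. Hif1a and Hnf4a were at 0.84 and 0.74 at 24 h.

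Conjugating enzymes, which act on P450 products, had medians of -0.15, -0.05 and -0.15 over 27 genes. Ugt2b35, a glucuronidation gene, was more than 2-fold higher at 24 h (log2 difference 1.49), the 1 member past 2-fold. Ugt2b15 was at -0.30, -0.23 and -0.64. The sulfotransferase gene Sult1b1 was at 0.02, 0.96 and 0.98, and Ephx2, the epoxide hydrolase that acts on products of the epoxygenases, at -0.81, -0.99 and -0.54.

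Many of the 45 genes are best known from liver, and liver genes were read on the same arrays. The 15 hepatocyte markers had medians of -0.16, -0.16 and -0.13, with 4, 6 and 5 above VAD, and 1 (Fgg at 8 h, 1.09) past 2-fold. The shares of all genes above VAD were 38.8%, 38.5% and 40.0%. Leydig markers (6 of 8 listed, Fdx1 among them) had medians of 0.29, 0.12 and -0.39. Nr5a1 (1.24 at 8 h, 1.63 at 24 h) and Fdx1 (-1.28 at 24 h) were past 2-fold in opposite directions. Sertoli markers (12 of 15) had medians of 0.21, 0.05 and 0.04. Those past 2-fold were Gdnf at 8 h (1.02) and Wt1 (1.03) and Kitlg (1.09) at 24 h. At 24 h, 6 of the 12 Sertoli markers were above VAD and 6 below it, Inha being the lowest (-0.50). Spermatid markers (6 of 7) had medians of 0.77, -0.37 and -0.66, with Tnp2 at 1.87 at 4 h and Odf1 at -1 at 24 h. Of the macrophage markers 3 of 6 were measured, with medians of -0.01, -0.03 and 0.27, and of the endothelial ones 3 of 5, with -0.22, 0.43 and 0.47. Within the latter, Kdr was at -1.40, -1.15 and -1.35, past 2-fold lower at every time, and Pecam1 at 0.39, 0.48 and 0.65. Their part in the P450 values was not tested.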

How the data were processed

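The members and gene lists were chosen with earlier results of these data known. The authors deposited linear ratios per probe set, 1 column per array, with GCOS and MAS5 named in the submitters' processing notes without versions. Neither the labels nor the file headers state how signals became ratios, what the reference was or whether RNA was pooled. Of 8799 probe sets, 59 were controls, 7006 had 1 gene symbol, 308 had several and 1426 were not listed, the last 2 kinds being left out of gene values. Symbols were updated through Entrez IDs in RefSeq (GRCr8), and all 45 members matched. Ratios were put on the log2 scale and averaged per gene. The difference between arrays was computed for 4736 genes, and genes past 2-fold were counted. No test was possible with 1 array per group. The calculation was tested on simulated data whose planted changes were far above the simulated noise. That checks the arithmetic only, not how well changes are found in these data. The named genes were the 5 largest differences in each direction at each time against VAD, members past 2-fold, all bile acid and steroid members, and members whose probe sets differed in sign by over 1. Other members were named for completeness. For each partner list, up to 3 genes with the largest differences at 24 h were named, and others were chosen after their values were seen. Python 3.11.15, pandas 2.3.3 and numpy 2.4.6 were used.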

Additional observations from a re-analysis of the deposited data

How the results depend on the processing

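With 1 array per group no replicate could be left out. No paired analysis was possible because each group has 1 sample and the results come from no test. Averaging by database sequence and using the platform's own symbols left all 16 counts and medians within their limits. Scaling on spike-ins gave medians of 0.47, 0.54 and 0.70 for families 1 to 4 and 0.49, 0.50 and 0.33 for the bile acid and steroid group at 4, 8 and 24 h. It gave 2, 2 and 8 members 2-fold higher against VAD, where 9.42%, 10.3% and 15.7% of all genes were. At 8 h and 24 h it gave 0 lower (0.317% and 0.274% of all genes). At 24 h against 8 h it gave 2 higher and 1 lower (0.95% and 0.422%). Centring gave family 1 to 4 medians of 0.015, 0.16 and 0.20, with 1 member higher and 0 lower at 24 h (4.29% and 1.69% of all genes). The probe set with the highest mean gave family medians of 0.040 at 4 h and 0.23 at 24 h, 2, 2 and 1 members higher (2.79%, 5.05% and 5.87% of all genes) and 0 lower at 4 h and 24 h (1.31% and 2.47%). Between arrays it gave 0 higher and 2 lower at 8 h against 4 h (1.01% and 1.1% of all genes). It gave 1 lower at 24 h against 8 h (0.76%). Genes with 2 or more probe sets gave medians of 0.039 (families 1 to 4) and 0.21 (bile acid and steroid) at 4 h. They gave 0 lower at 8 h (0.511% of all such genes) and 0 lower at 8 h against 4 h (0.256%). They gave 0 higher and 1 lower at 24 h against 8 h (0.192% and 0.383%). Without suffixed probe sets, which left 21 genes, the family 1 to 4 median at 8 h was -0.10. In this setting 0 were lower at 4 h and 24 h (1.48% and 3.04% of all genes). It gave 0 higher at 8 h against 4 h (0.895%), and 0 higher and 0 lower at 24 h against 8 h (0.73% each). Taken against 1, 1 member was higher at 4 h, and 2 were higher and 2 lower at 24 h (2.17%, 3.21% and 3.65% of all genes). A 1.5-fold threshold gave 2, 1 and 4 higher and 4, 3 and 5 lower against VAD. It gave 3 higher and 2 lower at 8 h against 4 h (3.61% and 3.4% of all genes). At 24 h against 8 h it gave 4 higher and 2 lower (3.08% and 3.15%). Probe sets of suffix i or r (incomplete, or picked under relaxed rules) were left out as an alternative chosen after seeing the data. Then 0 members were lower at 4 h and 24 h (1.18% and 2.56% of all genes). There were 0 higher at 8 h against 4 h (0.677%) and 1 lower at 24 h against 8 h (0.613%). Cyp7a1 at 24 h was then 0.069 in place of -1.03, and equally 0.069 when its highest-mean probe set stood for the gene, since only the probe set from J05460 was left. The cause of the other differences was not tested. Signal over background is not kept in ratios, so dim probe sets could not be told from bright ones.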

Other observations

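Another 13 probe sets were assigned to 2 P450 genes each and entered no gene value. None was at least 2-fold higher or lower than VAD. Of all genes, 1.41%, 2.83% and 3.27% were higher and 1.25%, 1.88% and 2.64% lower at 4, 8 and 24 h. The probe set shared by Cyp11b1 and Cyp11b3 read 1.39, 1.95, 1.09 and 1.67 in VAD and at 4, 8 and 24 h. That shared by Cyp2d5 and Cyp2d1 read 1.42, 0.989, 1.59 and 1.08, low at 4 h and 24 h. The 3 shared by Cyp2b2 and Cyp2b1 lay between -0.40 and 0.12 at all times, as log2 differences from VAD.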
